A study of Mus musculus with 7 samples.

Results

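miR-210 is a microRNA encoded by 1 hairpin gene, Mir210, whose precursor is cut into 2 mature strands, mmu-miR-210-3p and mmu-miR-210-5p. Both strands, matched by their exact names, were followed among the 820 miRNAs of the deposited table. The pair was chosen by name with the deposited levels and fold changes of this contrast already known, so its difference between groups is given as a description with no test. The levels come from small RNA sequencing of extracellular vesicles (small membrane-bound particles shed by cells) isolated from epididymal white adipose tissue. All mice were male ApoE-/- animals, which are prone to atherosclerosis, aged 8 weeks per the labels and kept for 12 weeks on a high-fat diet (HFD). One group of 4 libraries received that diet alone. The other group of 3 libraries received it together with a daily nicotine dose of 2 mg/kg, and is called HFD+Ni. All 7 libraries carry the batch label 1. Libraries are named by group and by the replicate number in their labels. The labels do not say whether a library came from 1 animal or from several, so p-values measure only the spread between these libraries, which may be technical.

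miR-210 is the miRNA most closely tied to low oxygen: the transcription factor HIF1A raises its transcription in hypoxic cells. Its 3p strand is the one usually loaded into Argonaute, and in human cells it represses Iscu, an iron-sulfur cluster scaffold, and Efna3, an ephrin ligand of blood vessel cells, which lowers mitochondrial respiration and favours vessel growth. Enlarged fat in obesity is a tissue where low oxygen has been described, and hypoxic cells are known to release miR-210 in vesicles.

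The precursor and both strands are shown because the results turn on how many reads each strand received. In the hairpin, as RefSeq gives it on GRCm38.p6, capitals mark the 5p strand and then the 3p strand, and in the mature strands capitals mark the seed (bases 2 to 8), the stretch that pairs with target messenger RNAs.
Mir210 hairpin: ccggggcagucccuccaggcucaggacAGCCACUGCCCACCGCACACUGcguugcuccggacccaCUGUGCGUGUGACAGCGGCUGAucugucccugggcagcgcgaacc
mmu-miR-210-3p: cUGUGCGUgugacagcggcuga
mmu-miR-210-5p: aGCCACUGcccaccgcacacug

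Mir210 lies on the minus strand of chromosome 7 at chr7:141221384-141221493, with the 3p strand at chr7:141221407-141221428 and the 5p strand at chr7:141221445-141221466. In GENCODE M21, on the same build, 0 other annotated transcripts or exons overlapped it. The nearest genes were Rassf7, 2726 bp away at lower coordinates, and Phrf1, 7291 bp away at higher coordinates. In the 110-base hairpin the 5p strand takes bases 28 to 49 and the 3p strand bases 66 to 87, separated by a loop of 16 bases. The lowest-energy fold predicted by ViennaRNA (-48 kcal/mol) pairs 16 of the 22 bases of the 5p strand with the 3p strand. GC content was 63.6% for the 3p strand and 68.2% for the 5p strand.

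Sequence alone sets both strands apart from the other listed mouse miRNAs. Among the 1678 other mature miRNAs in the RefSeq table, 0 share the 7-base seed of either strand and 0 share its first 6 bases. Of the 820 deposited names 696 matched that table, so the search may miss some of the others. The longest run of bases shared with any of them was 9 for the 3p strand (miR-7672-5p) and 10 for the 5p strand (miR-6936-5p). The metabolic miRNAs miR-103-3p and miR-107-3p are shown as a contrast, because they carry 1 seed, are nearly identical along their length and had equal reads in 5 of the 7 libraries.
mmu-miR-103-3p: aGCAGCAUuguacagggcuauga
mmu-miR-107-3p: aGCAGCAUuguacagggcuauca

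Sequencing depth limits every value that follows. The deposited values are miRNA reads scaled to a total of 1000000 (rpm), and whole reads were recovered from them. The HFD libraries held 77021 to 1055902 miRNA reads and the HFD+Ni libraries 53626 to 175892, so that 1 read is 0.947 rpm in HFD replicate 2, the deepest library, and 18.6 rpm in HFD+Ni replicate 1, the shallowest. Intervals below are exact Poisson or exact binomial (Clopper-Pearson) 95% intervals and cover counting error only, since copies made by PCR are not independent molecules. In vesicles from whole tissue, fewer vesicles from a cell type and less miRNA per vesicle cannot be told apart.

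The mature 3p strand was detected in every library and was highest in HFD+Ni replicates 1 and 2. mmu-miR-210-3p was at 61.9, 54.0, 17.0 and 51.9 rpm in HFD replicates 1 to 4, from 5, 57, 2 and 4 reads. In HFD+Ni replicates 1 to 3 it was at 448, 159 and 46.5 rpm, from 24, 28 and 5 reads. The first 2 of these lay above every HFD library, whereas HFD+Ni replicate 3 lay inside the HFD range, so the groups overlapped.

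Group means (± SD) were 46.2 ± 19.9 rpm for HFD with n = 4 and 218 ± 207 rpm for HFD+Ni with n = 3, a 4.71-fold difference of means. The SD within HFD+Ni was nearly as large as its mean. HFD+Ni replicate 1 alone carried 68.5% of the summed level of its group. Without that library the HFD+Ni mean was 102.8 rpm and the fold 2.23.

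**Figure D1:**
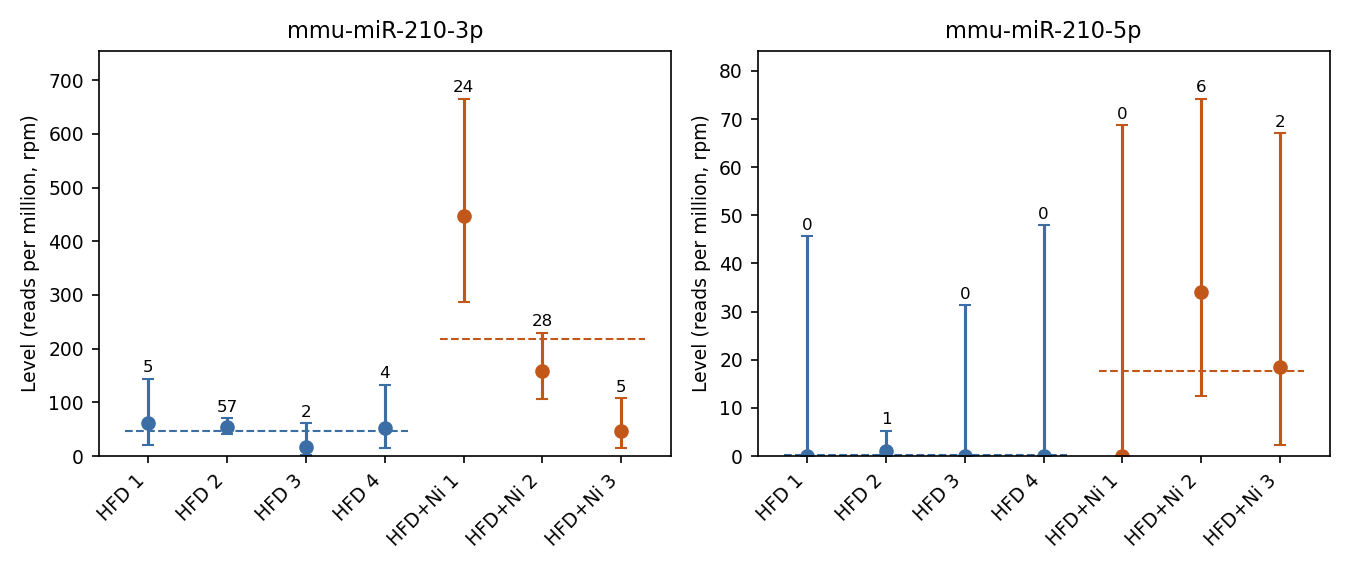
Levels of mmu-miR-210-3p (left) and mmu-miR-210-5p (right) in rpm in each library. Points are libraries (blue HFD, orange HFD+Ni), bars are 95% Poisson intervals, the number above each bar is its reads, and dashed lines are group means; HFD+Ni replicates 1 (448 rpm) and 2 (159 rpm) lie above all HFD libraries for the 3p strand and HFD+Ni replicate 3 (46.5 rpm) does not.

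Pooling reads weights each library by its depth and gave a smaller ratio. The 68 reads in 1331199 of HFD are 51.1 rpm (interval 39.7 to 64.8), and the 57 reads in 337149 of HFD+Ni are 169 rpm (interval 128 to 219). Their ratio was 3.31 (interval 2.29 to 4.78), and 2.28 without HFD+Ni replicate 1 (interval 1.46 to 3.50). These intervals take the reads of a group as 1 library and leave out the spread between libraries.

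Reads can be set beside what the depth of each library predicts at its group's pooled level. At the pooled HFD level the 4 HFD libraries would hold 4.13, 53.9, 6.00 and 3.93 reads of miR-210-3p, and they held 5, 57, 2 and 4. HFD replicate 2 supplies 57 of the 68 pooled reads, so its match is built in, and HFD replicate 3 held fewer than predicted. At the pooled HFD+Ni level its 3 libraries would hold 9.07, 29.7 and 18.2 reads, and they held 24, 28 and 5, so replicate 1 held more than predicted, replicate 2 about as many and replicate 3 fewer. The interval of HFD+Ni replicate 1 (287 to 666 rpm) does not meet that of replicate 2 (106 to 230 rpm) or replicate 3 (15.1 to 108 rpm). HFD+Ni replicate 3 held close to the 5.50 reads that the pooled HFD level predicts for its depth.

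**Figure D2:**
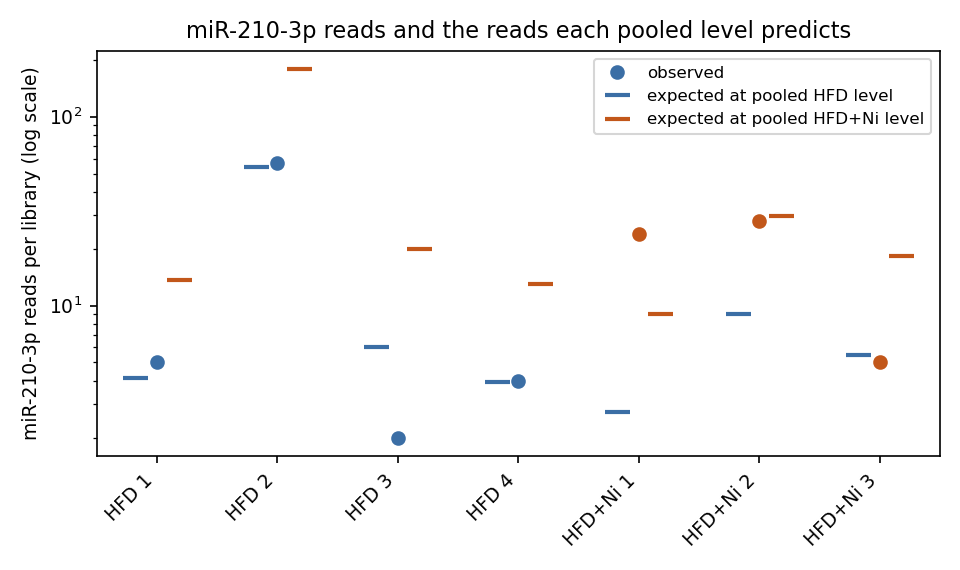
Reads of miR-210-3p in each library (points, log scale) beside the reads its depth predicts at the pooled HFD level (blue dashes) and at the pooled HFD+Ni level (orange dashes). HFD replicate 3 (2 reads) lies under its blue dash (6.00), HFD replicate 2 sets most of the blue level, HFD+Ni replicate 1 (24 reads) exceeds both dashes (2.74 and 9.07), and HFD+Ni replicate 3 (5 reads) sits near the blue one (5.50).

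By rank, miR-210-3p is a mid-level miRNA of these vesicles. It was number 178 of 284 miRNAs read in HFD replicate 1, 189 of 710 in replicate 2, 253 of 342 in replicate 3 and 179 of 273 in replicate 4. It was number 87 of 250, 130 of 376 and 200 of 379 in HFD+Ni replicates 1 to 3. On the mean of 7 libraries it was number 146 at 120 rpm, next to miR-222-3p, an endothelial and smooth muscle growth miRNA (122 rpm, range 83.6 to 186), and miR-149-5p (118 rpm, range 18.6 to 392). One place further out lay skeletal muscle miR-206-3p (124 rpm, range 0 to 753) and miR-185-5p (110 rpm, range 64.9 to 168). The range of miR-210-3p, 17.0 to 448 rpm, was thus wider than that of miR-222-3p, miR-149-5p and miR-185-5p.

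Such spread within HFD+Ni was not rare at this level. For miR-210-3p the highest HFD+Ni library was 9.63 times the lowest. Of 85 other tested miRNAs with a mean between 50 and 250 rpm, 27 had at least that ratio, counting 18 that had no read in 1 or more HFD+Ni libraries.

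The 5p strand was nearly unread outside HFD+Ni replicates 2 and 3. mmu-miR-210-5p had 0, 1, 0 and 0 reads in HFD replicates 1 to 4, which is 0.95 rpm in replicate 2. In HFD+Ni replicates 1 to 3 it had 0, 6 and 2 reads, which is 0, 34.1 and 18.6 rpm. HFD+Ni replicates 2 and 3 therefore lay above all HFD libraries, and replicate 1 was at 0 like 3 of the HFD libraries, so the groups overlapped.

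The means of miR-210-5p (± SD) were 0.238 ± 0.475 rpm for HFD with n = 4 and 17.6 ± 17.1 rpm for HFD+Ni with n = 3. Pooled reads gave 0.751 rpm (interval 0.0190 to 4.19) against 23.7 rpm (interval 10.2 to 46.8), a ratio of 31.6 with a counting interval of 4.24 to 1402. The ratio rests on 1 HFD read. At a mean of 7.66 rpm over 7 libraries the strand passed the filter for low levels only through HFD+Ni.

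Taken singly, most of the zeros of miR-210-5p say little at these depths. With 0 reads seen, a level of up to 3 reads is allowed, which is 37.1, 25.5 and 39.0 rpm in HFD replicates 1, 3 and 4 and 55.9 rpm in HFD+Ni replicate 1. At the pooled HFD+Ni level those HFD libraries would hold 1.92, 2.79 and 1.83 reads. HFD replicate 2 would hold 25.05 reads at that level and held 1, so it is the HFD library whose depth bears most on the difference.

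The share of the 5p strand was lowest in HFD replicate 2 and highest in HFD+Ni replicate 3 among the libraries that read both strands. The 5p strand made up 1 of 58 miR-210 reads (1.72%, exact binomial interval 0.0436 to 9.24) in HFD replicate 2 and 6 of 34 (17.6%, interval 6.76 to 34.5) in HFD+Ni replicate 2. It made up 2 of 7 (28.6%, interval 3.67 to 71.0) in HFD+Ni replicate 3. In HFD+Ni replicate 1, the library with the highest 3p level, it made up 0 of 24, which allows up to 12.5% when 3 reads are taken as the limit and has an exact binomial upper bound of 14.2%. The intervals of HFD replicate 2 and HFD+Ni replicate 2 overlap, which by itself does not show that counting error covers the difference. The highest observed level was in HFD+Ni replicate 1 for the 3p strand and in HFD+Ni replicate 2 for the 5p strand. The 0 reads of the 5p strand in replicate 1 allow up to 55.9 rpm, above the 34.1 rpm of replicate 2. These reads therefore cannot tell in which library the 5p strand peaked.

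Pooled over libraries the 5p share was 1.45% in HFD (1 of 69 reads, interval 0.0367 to 7.81) and 12.3% in HFD+Ni (8 of 65 reads, interval 5.47 to 22.8). The 2 intervals overlap, which by itself does not show that counting error covers the difference, and they leave out the spread between libraries. Leaving out HFD+Ni replicate 1 gave a share of 19.5%, leaving out HFD+Ni replicate 2 one of 6.45%, and leaving out HFD replicate 2 one of 0% for HFD. Over all 7 libraries the lesser strand of miR-210 took 6.72% of 134 reads (interval 3.12 to 12.4). Of 103 hairpins with both strands in the table and at least 100 reads between them, 76 had a lower share in their lesser strand, the median being 1.94%, and the 3p strand was the major one in 42.

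HFD+Ni was compared with HFD for all miRNAs with limma on log2(rpm + 1), over the 387 miRNAs whose mean reached 5 rpm. On this scale the difference of miR-210-3p was 1.82 (SE 0.98), and that of miR-210-5p was 2.90 (SE 1.61). Of the 387 miRNAs, 87 (22.5%) had a log2 fold change above 1, 12.7% had one at least as high as miR-210-3p, and 3.36% one at least as high as miR-210-5p. The 5p strand passed the filter only through HFD+Ni, so its place near the top was favoured in advance. limma called 0 of 387 (0%) at adjusted p under 0.05, so neither strand is among the calls, and 11 (2.84%) at unadjusted p under 0.05. edgeR's quasi-likelihood test on the recovered reads called 0 (0%) at the adjusted threshold and 28 at the unadjusted one, and DESeq2 called 1 (0.258%) and 20. The groups did not overlap for 20 of the 387 (5.17%), and for 0 of the 2 miR-210 strands.

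The authors' deposited table gives miR-210-3p a log2 fold change of 2.09 with an FDR of 0.869, and miR-210-5p one of 4.12 with an FDR of 1. Both are positive, which in that table means higher in HFD+Ni. Neither strand is among the 15 miRNAs of the authors' deposited list of changed miRNAs. Per its header that list rests on other libraries than those compared here: HFD replicate 2 is not among its columns, and it has a further HFD+Ni column that matches no label.

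The difference of miR-210-3p was above 0 under all 19 alternative settings. These settings reuse the same 7 libraries, and a change of filter cannot move its value (1.82), so the shared sign adds no support. The size of the difference turned on single libraries. It was 1.03 on the log2 scale with HFD+Ni replicate 1 left out and 2.65 with replicate 3 left out. Leaving out an HFD library gave values from 1.41 to 2.01. edgeR gave 1.99 and DESeq2 1.97. Scaling by DESeq2 size factors gave 1.33, a setting that moved the median of all miRNAs by -0.43. Relative to that median, miR-210-3p was at 1.73, against 1.78 with the deposited scaling.

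**Figure D3:**
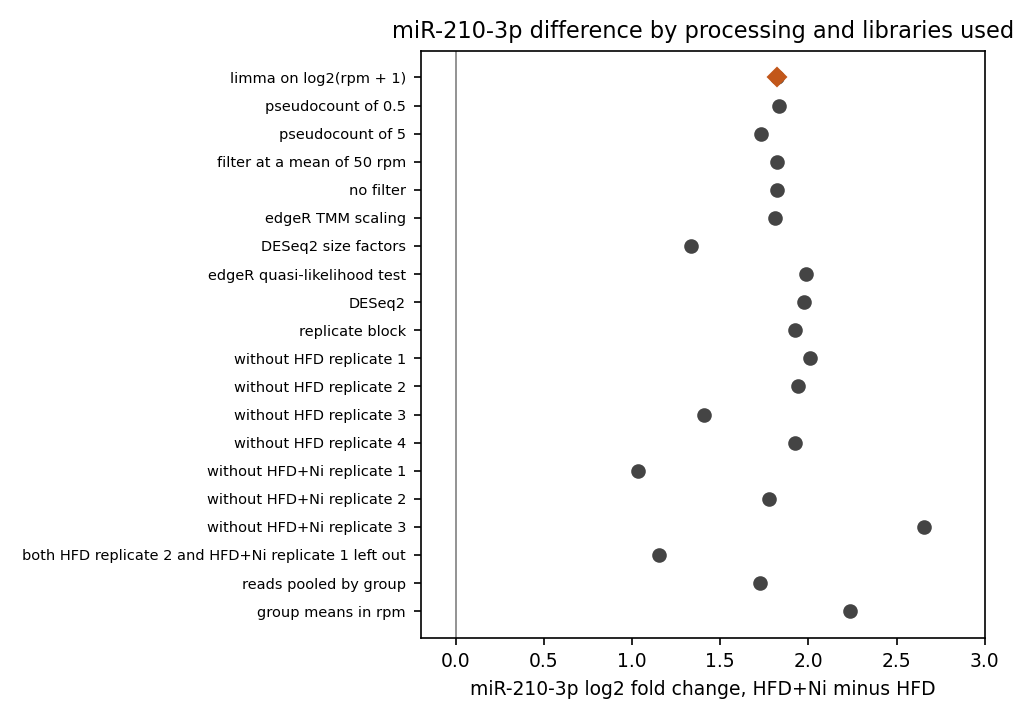
Log2 fold change of miR-210-3p (HFD+Ni minus HFD) in limma on log2(rpm + 1) (orange diamond, 1.82) and under each alternative (grey points). All points draw on the same libraries and lie above 0, and the lowest (1.03) and highest (2.65) are those with HFD+Ni replicate 1 and with replicate 3 left out.

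Among the marker lists only the epithelial one was highest in HFD+Ni replicate 1, the library that was highest for miR-210-3p. All 6 epithelial markers (the miR-200 family and miR-205-5p) had a positive log2 fold change. They were all read in HFD+Ni replicate 1, with a summed level of 45146 rpm, against 4813 to 13605 rpm in HFD and 6311 and 6820 rpm in HFD+Ni replicates 2 and 3. HFD+Ni replicate 2 therefore had an epithelial sum inside the HFD range and miR-210-3p at 159 rpm, above the HFD range.

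HFD+Ni replicate 1 was the lowest library for several other marker lists, and 0 of the 10 markers in the first 3 of them had a positive log2 fold change. Its 4 markers enriched in adipocytes (miR-193b-3p, miR-365-3p, miR-378a-3p and miR-335-5p) summed to 1716 rpm with miR-193b-3p at 0, against 4882 to 5482 rpm in HFD and 6220 and 5733 rpm in HFD+Ni replicates 2 and 3. The endothelial strands miR-126a-3p and miR-126a-5p summed to 12979 rpm there, against 20518 to 32381 rpm in HFD and 18597 and 18852 rpm in the other HFD+Ni libraries. The 4 myeloid and lymphoid markers summed to 1865 rpm with miR-142a-3p at 0, against 3207 to 4727 rpm in HFD and 3377 and 2685 rpm in the other HFD+Ni libraries. The part of these markers in the level of miR-210 was not tested.

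HFD+Ni replicate 1 was also lowest for the erythrocyte and the smooth muscle and stroma lists, and not for the testis and striated muscle lists. Of the 4 erythrocyte markers 3 are in the table; their sum was 8.51 to 114 rpm in HFD and 0, 154 and 167 rpm in HFD+Ni replicates 1 to 3, all 3 being at 0 in replicate 1. The 7 testis markers summed to 0 to 19.9 rpm in HFD and to 448, 0 and 548 rpm in HFD+Ni replicates 1 to 3, with 5 of the 7 at 0 in replicate 1. The 4 striated muscle markers summed to 866 to 4300 rpm in HFD and 762 to 1156 rpm in HFD+Ni, miR-206-3p being at 0 in HFD+Ni replicate 1. Of the 4 smooth muscle and stroma markers 3 are in the table, at 18276 to 60010 rpm in HFD and 15235 to 32732 rpm in HFD+Ni.

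The miRNA whose level followed miR-210-3p most closely over the 7 libraries was miR-425-3p. Likeness was measured as Pearson's r of log2(rpm + 1) over 7 libraries, among 144 miRNAs that averaged 100 rpm or more and were read in every library, and all points share the same libraries and depths. miR-425-3p (r = 0.87) was at 86.6, 73.9, 76.6 and 90.9 rpm in HFD and at 224, 125 and 55.8 rpm in HFD+Ni. Like miR-210-3p it was highest in HFD+Ni replicate 1, next in replicate 2, and in replicate 3 no higher than in HFD. Its r is the largest of 144 values on 7 libraries, so it was picked for its size.

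The next most similar were miR-204-5p (r = 0.75), miR-182-5p of sensory and epithelial cells (r = 0.70), miR-149-5p (r = 0.70) and miR-99b-5p (r = 0.63). miR-204-5p and miR-182-5p peaked in HFD+Ni replicate 1 at 2349.6 and 1455 rpm, and miR-149-5p did so at 392 rpm, whereas miR-99b-5p stayed between 1754 and 2871 rpm in all libraries. Without HFD+Ni replicate 1, over 6 libraries, r was 0.63 for miR-425-3p and 0.65 for miR-99b-5p but 0.22 for miR-204-5p, 0.15 for miR-182-5p and 0.25 for miR-149-5p. The likeness of those 3 to miR-210-3p thus rests on that library, and that of miR-425-3p fell from 0.87 to 0.63 without it.

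**Figure D4:**
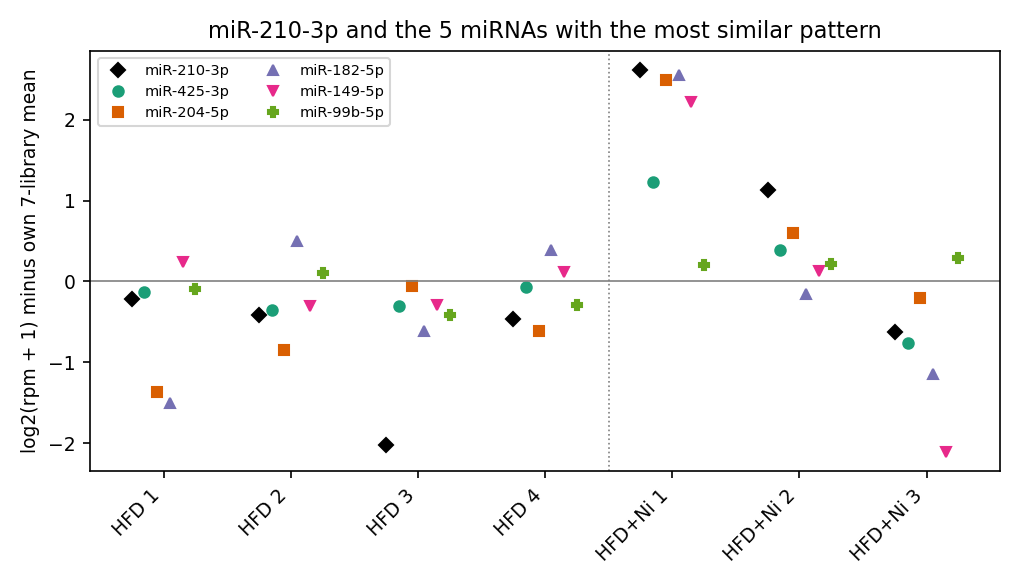
Level of miR-210-3p (black diamonds) and of the 5 miRNAs most like it, as log2(rpm + 1) minus each miRNA's own mean over 7 libraries, with HFD left and HFD+Ni right of the dotted line. In HFD+Ni replicate 1 miR-210-3p, miR-425-3p, miR-204-5p, miR-182-5p and miR-149-5p are all at their highest. In HFD+Ni replicate 3 miR-210-3p is within its own HFD range and miR-425-3p is below its own HFD range.

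Other miRNAs of the hypoxia response lay in both directions, more of them lower than higher in HFD+Ni. A list of 32 was made of 20 reported to increase in hypoxic cultured cells and 12 reported to act on Hif1a or on the hydroxylases that mark HIF proteins for decay or block them; 31 are in the table and 29 passed the filter. Of the 29, 12 lay higher and 17 lower in HFD+Ni (58.6% lower) with a median log2 fold change of -0.21, against 47.3% lower and a median of 0.04 over all 387 miRNAs. limma called 0 of the 29 at adjusted p under 0.05, where it called 0% of all miRNAs. At unadjusted p under 0.05 there were 2 of 29, beside 2.84% of all miRNAs. With DESeq2 size factors, which move the median of all miRNAs by -0.43, 25 of the 29 (86.2%) lay lower, beside 245 of all 387 (63.3%).

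Among the 19 tested miRNAs reported to increase in hypoxia, 6 lay higher and 13 lower, with a median of -0.24, and 0 had a log2 fold change above that of miR-210-3p. The most abundant was miR-30d-5p which averaged 19743 ± 2839 rpm without nicotine (SD, n = 4) against 17718 ± 2118 rpm with it (SD, n = 3), a log2 fold change of -0.15 (SE 0.19). miR-26a-5p, known to favour differentiation of human adipocytes, was at 14074 ± 1863 and 12343 ± 3444 rpm, with a log2 fold change of -0.21 (SE 0.23). miR-26b-5p, which has the same seed, was at 10252 ± 2100.0 and 8728 ± 3036 rpm. These differences were smaller than the spread between libraries.

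The hypoxia-linked miR-23 and miR-27 strands, which come from shared clusters, differed by less than the spread of the HFD+Ni libraries. miR-23a-3p was at 11173 ± 3864 rpm without nicotine and 12473 ± 6554 rpm with it, and miR-23b-3p, whose values stayed within 3.50% of it in every library, at 10914 ± 3735 and 12205 ± 6186 rpm. miR-27a-3p and miR-27b-3p, which share a seed, were at 2884 ± 296 and 2913 ± 308 rpm without nicotine, and at 2481 ± 648 and 2585 ± 636 rpm with it. miR-103-3p and miR-107-3p, known for their action on insulin sensitivity, were nearly equal: miR-103-3p averaged 9499.7 ± 2710.2 rpm without nicotine against 7748 ± 2318 rpm with it, and miR-107-3p 9499 ± 2708 against 7745 ± 2312 rpm. Such pairs cannot be counted as separate evidence, since a read may have been counted for both members.

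The 2 list members at unadjusted p under 0.05 pointed in opposite directions. miR-21a-5p, an inflammation and fibrosis miRNA that also responds to hypoxia, read 8464, 17527, 11536 and 10075 rpm in the HFD libraries and 6918, 7203 and 8789 rpm in the HFD+Ni libraries. Its log2 fold change was -0.59 (SE 0.26, limma adjusted p = 0.830), and the groups overlapped. miR-204-5p read 161, 231, 400 and 273 rpm in the HFD libraries and 2349.6, 631 and 362 rpm in the HFD+Ni libraries. Its log2 fold change was 1.68 (SE 0.63, limma adjusted p = 0.830), and HFD+Ni replicate 3 lay inside the HFD range. The 1 list member whose groups did not overlap was miR-322-5p, the mouse counterpart of human miR-424, at 532 to 701 rpm in HFD and 307 to 506 rpm in HFD+Ni (limma adjusted p = 0.830, beside 5.17% of all miRNAs without overlap).

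Of the 10 tested miRNAs reported to act on Hif1a or its hydroxylases, 6 lay higher and 4 lower, with a median of 0.10. The 1 list member with a log2 fold change above that of miR-210-3p was miR-138-5p, reported to act on the hydroxylase Egln3, at 2.19 (SE 1.81) from 19 reads in all. miR-17-5p, from a growth-promoting cluster, had 11 reads in HFD and none in HFD+Ni, and miR-20b-5p had 18 reads in all. HFD held 1331199 miRNA reads against 337149 in HFD+Ni, and HFD replicate 3 also had none of miR-17-5p, so these counts are not directly comparable. miR-199a-5p, reported to act on Hif1a, averaged 953 ± 127 rpm without nicotine against 1070 ± 208 rpm with it, less apart than the SD of either group. miR-429-3p, which also stands in the epithelial list, reached 2089 rpm in HFD+Ni replicate 1 and ran from 195 to 596 rpm elsewhere. Beyond the 10 most abundant list members, those named here were picked after their values were seen.

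**Figure D5:**
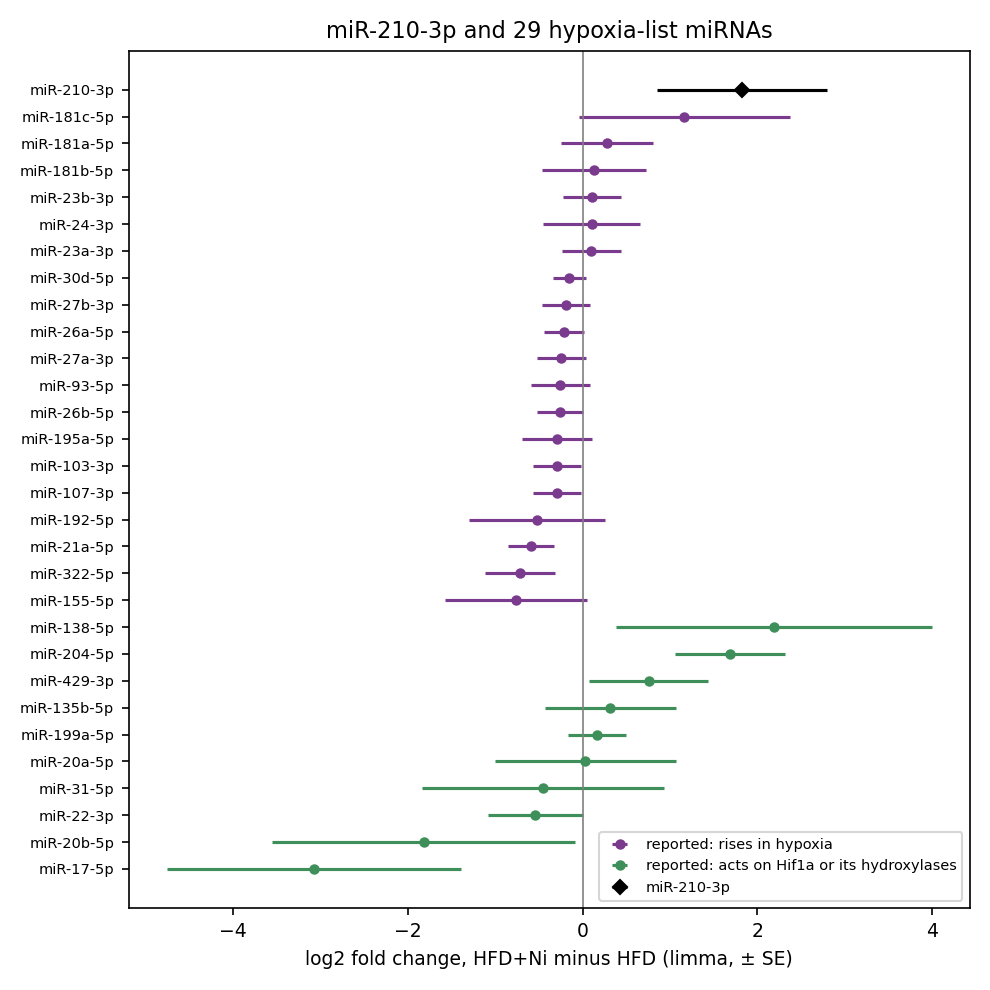
Log2 fold change (HFD+Ni minus HFD, limma, bars ± SE) of miR-210-3p (black diamond, 1.82) and of the 29 tested list members, purple for those reported to increase in hypoxia and green for those reported to act on Hif1a or its hydroxylases. Purple points lie from -0.76 to 1.16, with 13 of 19 below 0, and the widest bars belong to miRNAs with few reads.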

How the data were processed

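Vesicle miRNAs were sequenced in 7 libraries (4 HFD, 3 HFD+Ni), grouped by the treatment in the labels. The authors deposited values named TPM that are RPM: each deposited rpm column sums to 1000000, and dividing by the worth of 1 read returned whole reads for 100% of values within a tolerance of 0.1 read. Per the submitters' processing notes the builds were GRCm38 and mm10 and edgeR was used; aligner, counter and miRNA annotation: not given in the sources used here. Further, the authors' deposited table also holds p-value, FDR and log2 fold change columns. In the authors' list 1 per-sample column matches no label and was not used.

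Here limma 3.58.1 (R 4.3.3, moderated, mean-variance trend) was fitted across all miRNAs averaging 5 rpm or more on log2(rpm + 1), with a pseudocount of 1, two-sided, with Benjamini-Hochberg adjustment at 0.05. Folds on this scale understate changes of scarce miRNAs. edgeR 4.0.16 and DESeq2 1.42.0 on the recovered reads were alternatives, and the fits were tested on simulated data. The hairpin was folded with ViennaRNA 2.7.2. Sequences come from RefSeq (GRCm38.p6), where 696 of the 820 names matched, and the locus from GENCODE M21. Members and lists were chosen with earlier results of these data known. Named were both strands, the 10 most abundant hypoxia list members (others by counts, or after their values were seen), the 5 miRNAs most like miR-210-3p among those averaging 100 rpm or more, its 4 neighbours in mean level, and the markers. The ratios of pooled reads and of group means were added after the data were seen.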

Additional observations from a re-analysis of the deposited data

Results flagged for a closer look

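One value was flagged by Dixon's criterion at the 95% level: miR-210-5p in HFD replicate 2, at 0.95 rpm against 0 in the other 3 HFD libraries. It is 1 read in the deepest library. With the other 3 libraries tied at 0 the criterion flags any value above 0, so the flag carries no information. The criterion was applied to 25 sets of 4 HFD values (both strands, the named miRNAs and the summed marker lists). Chance flags about 1 in 20, a rate that does not hold for tied values.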

How the results depend on the processing

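The alternatives reuse the same libraries, so a shared sign is not independent support. The log2 fold change of miR-210-3p (1.82) was above 0 in each of the 19 alternatives and ranged from 1.03 to 2.65 with 1 library left out. That of miR-210-5p (2.90) was 4.71 with both HFD replicate 2 and HFD+Ni replicate 1 left out; it was 4.47 without HFD+Ni replicate 1 alone, which has 0 reads of it, and 3.14 without HFD replicate 2 alone. With a pseudocount of 5 it was 1.67 and with a pseudocount of 0.5 it was 3.405. It was above 0 in the other alternatives that gave a value. It has no value at a filter of 50 rpm or without HFD+Ni replicate 2. The number of miRNAs at adjusted p under 0.05 was 0 in limma under each setting, 0 in edgeR and 1 in DESeq2, and the cause was not tested. The 5p share of miR-210 reads in HFD was 0% without HFD replicate 2 and up to 1.56% without another HFD library. In HFD+Ni (12.3%) it ran from 6.45% without HFD+Ni replicate 2 to 19.5% without HFD+Ni replicate 1. Labels number the replicates in both groups. Deviations of same-numbered libraries from their group means had correlations of -0.08, 0.07 and -0.19 across 201 miRNAs. With so few libraries these values cannot settle whether the numbers mark pairs, which the labels do not say. With the replicate number as a replicate block, miR-210-3p was at 1.92 and 0 miRNAs were called. In that fit 21 of 29 hypoxia list members lay lower (72.4%, beside 51.9% of all miRNAs), against 17 without the block. HFD replicate 4 has no partner in that fit, and leaving it out alone gave the same 1.92 and 21. Over the settings the share of list members lower in HFD+Ni was lowest at 55.2% (16 of 29) without HFD replicate 2. It was highest at 86.2% (25 of 29) with DESeq2 size factors. Of all miRNAs 46.1% and 63.3% lay lower at those settings, so the whole table moved the same way. With no filter 19 of 31 list members (61.3%) lay lower, beside 500 of all 820 miRNAs, which is nearly the same share. Depth limits the 5p strand most, with 9 reads in all.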
